A study of Mus musculus with 18 samples.

Results

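The genes described here are the nuclear genes of mitochondrial complex I: the 46 of 21938 mouse protein-coding genes whose symbol starts with Nduf. They were taken by symbol from GENCODE M21 on the GRCm38 build, and each was scored for KDM2A and H3K36me2 ChIP-seq peaks at its promoter and over its body. By role, 10 members belong to the N module, 6 to the Q module, 9 to the proximal and 11 to the distal membrane arm, 8 are assembly factors, and Ndufa4 and Ndufa4l2 form a pair apart.

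The libraries came from splenic B cells of WT C57BL/6 mice and of C57BL/6 mice lacking miR-155 (KO), obtained by negative selection against CD43, Ter119 and CD4. Cells of both genotypes were grown for 2 days in 1% oxygen with anti-CD40, anti-IgM F(ab')2 fragments and IL-4, so a normoxic or resting group is not part of the comparison. Each genotype had 3 KDM2A and 3 H3K36me2 peak lists, with replicate 1 from a male and replicates 2 and 3 from females, and the 6 input libraries were not used as separate files. The labels give no age for the mice and do not say which antibody libraries share chromatin, so the p-values below measure the spread between these lists.

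Complex I is the NADH:ubiquinone oxidoreductase of the inner mitochondrial membrane. Its N module oxidises NADH, its Q module passes the electrons through iron-sulphur clusters to ubiquinone, and its membrane arm pumps protons, while assembly factors build the enzyme and then leave it. KDM2A is a histone demethylase that removes the dimethyl mark from lysine 36 of histone H3 (H3K36me2) and that binds unmethylated CpG dinucleotides through its CXXC zinc finger, so CpG-rich promoters are where it is usually found. The question put to the lists was where both lie on these genes, and whether that differed between WT and KO.

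The lists differed in size before any gene was scored. KDM2A lists held 23372 to 29105 peaks in WT and 15387 to 21705 in KO. H3K36me2 lists held 85387 to 94136 peaks in WT, and 106720, 37447 and 45180 in KO replicates 1, 2 and 3, so the male KO list stood apart. The fold values in them are ratios over background that were not scaled between lists, and read depth is unknown. A KDM2A peak lay at the promoters of 5 of 6 B cell markers in all 6 lists and of Ms4a1 in 4, while Cd3d and Cd8a of the T cell markers had one in 4 lists and 1 list, and Adgre1 and Csf1r of the myeloid markers in 2 lists and 1 list. Cd3e, Cd4, Lyz2, Itgam and 3 erythroid markers had none. A peak covered the Mir155 precursor in 1 of 12 lists, so the lists do not check the deletion.

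KDM2A peaks lay at most complex I promoters in both genotypes. With a promoter taken as 2 kb either side of any transcription start site (TSS) of the gene, 37, 31 and 38 of 46 members had a KDM2A peak in WT replicates 1, 2 and 3, and 27, 35 and 33 in KO. This was 76.8% ± 8.23 of members in WT and 68.8% ± 9.05 in KO (mean ± SD, n = 3 lists each), and the ranges of the genotypes overlapped. Over all protein-coding genes the shares were 47.4% ± 0.80 and 41.2% ± 3.54. Among the 9740 genes with a CpG-rich promoter they were 74.6% and 67.6%, close to those of the members. With the same number of strongest peaks taken from each list, the shares were 67.4% in WT and 65.2% in KO for the members, 39.7% and 39.4% for all genes, and 65.1% and 65.5% for CpG-rich genes. With all peaks, the genes of respiratory complexes II to V stood at 83.7% and 68.7%, and those of mitochondrial ribosomal proteins at 79.1% and 70.1%.

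With all peaks, the lower count of members with a KDM2A peak in KO lay mostly between the male lists. The difference, KO minus WT, was -10 members in the males and -0.5 on average in the females, against -3.67 over all lists. It was -1.33 members without KO replicate 1, -2.33 without WT replicate 3 and -5.83 without WT replicate 2, and -1 member with equal numbers of strongest peaks. Over all protein-coding genes it was -1872 genes in the males and -1117 in the females. With only peaks at a -log10 q of at least 2 the genotypes did not overlap, at 30, 27 and 29 members in WT and 16, 21 and 24 in KO, a difference of -8.33. Nor did they over all protein-coding genes, at 8109, 7945 and 7523 in WT and 5524, 5295 and 6730 in KO. The shares were then 62.3% and 44.2% for the members, 35.8% and 26.7% for all protein-coding genes and 59.8% and 46.5% for CpG-rich ones.

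**Figure D1:**
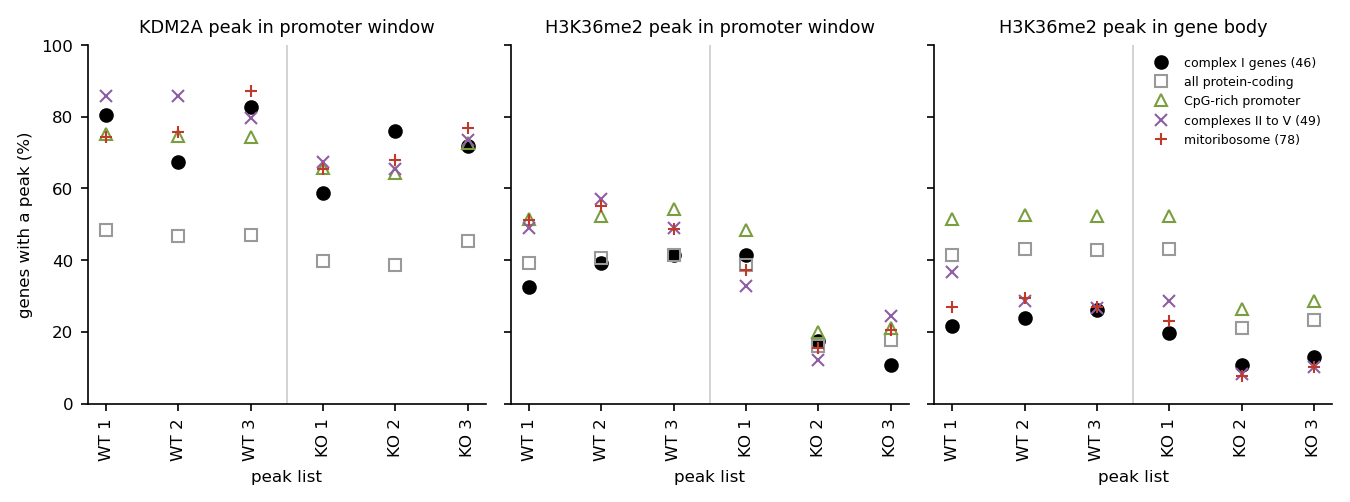
Percent of genes with a peak in each of the 6 lists per antibody, for the complex I genes and for the comparison genes; each point is 1 list. The members' KDM2A shares run from 58.7% to 82.6% and sit near those of CpG-rich genes, whereas their H3K36me2 gene body shares, 10.9% to 26.1%, lie below those of CpG-rich genes in every list.

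Complex I genes differed from the average gene in sequence and position, as did other nuclear genes of mitochondrial proteins. CpG-rich promoters, defined by at least 50% GC and an observed to expected CpG ratio above 0.6 within 500 bases of the TSS, were found at 36 members (78.3%) and at 44.4% of all protein-coding genes. The median member was 8090 bases long, with a range of 1778 to 155909, against 17420 for all genes. The promoter windows of 25 members (54.3%) also held the TSS of another protein-coding gene, as did 16.8% of all windows, and a peak in such a window cannot be given to 1 gene of the pair. The genes of mitochondrial ribosomal proteins were much like them, with 79.5% CpG-rich promoters, 47.4% shared windows and a median length of 7900 bases, and those of respiratory complexes II to V had 69.4%, 34.7% and 6819 bases. In these 25 members the share with a KDM2A peak was 80.0% in WT and 61.3% in KO, and in the 21 others 73.0% and 77.8%. The lists of these 25 ranged from 72.0% to 88.0% in WT and stood at 44.0%, 76.0% and 64.0% in KO replicates 1, 2 and 3. CpG-rich genes split the same way had 88.3% and 81.5% with a shared window, and 70.0% and 62.9% without.

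The N module, which oxidises NADH, had a KDM2A promoter peak at 8, 7 and 8 of its 10 genes in WT and 7, 8 and 9 in KO. Ndufv1 carries the flavin that takes electrons from NADH. Its strongest KDM2A peak reached 4.19, 3.55 and 3.00 fold over background in the WT lists and 2.61, 3.40 and 2.90 in KO, with overlapping ranges. Ndufv2, an iron-sulphur subunit beside it, had the narrowest spread, at 2.99, 2.94 and 2.97 fold in WT and 2.79, 2.74 and 2.78 in KO. Ndufs1, which holds several iron-sulphur clusters, gave 2.47, 3.19 and 3.00 fold in WT and 2.62, 3.52 and 3.22 in KO. Ndufs4, an accessory subunit that stabilises this module, was nearly without KDM2A, with 1 peak of 3.64 fold in KO replicate 3.

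The Q module, which reduces ubiquinone, had a KDM2A promoter peak at 4, 6 and 5 of its 6 genes in WT and 5, 4 and 5 in KO. Ndufs7, the subunit that hands electrons to ubiquinone, had the highest mean fold of the members with peaks in all 6 lists, 3.65, from 3.81, 4.20 and 3.39 in WT and 3.02, 3.82 and 3.68 in KO. Ndufs8, another iron-sulphur subunit, ranged from 2.66 to 3.25 in WT and from 2.55 to 3.44 in KO. Ndufs3, a structural core subunit, had no peak in WT replicate 1, 2.97 and 4.01 fold in the other WT lists, and 2.64, 2.70 and 2.89 in KO. The 7 nuclear core subunits, which form the conserved catalytic part of the enzyme together with mitochondrially encoded ones, had a KDM2A peak at 6, 7 and 7 genes in WT and at all 7 in each KO list.

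In the proton-pumping membrane arm, KDM2A peaks were at 6, 4 and 8 of 9 proximal genes in WT and 5, 6 and 5 in KO, and at 9, 8 and 8 of 11 distal genes in WT and 5, 8 and 7 in KO. Ndufb2, a distal arm subunit with a peak in all 6 lists, gave 2.64, 3.83 and 3.82 fold in WT and 2.31, 3.43 and 3.19 in KO. Ndufb7, another distal subunit, had peaks in WT replicates 1 and 3 and KO replicates 2 and 3, covering 42.6% and 57.7% of its promoter window in WT and 8.71% and 16.2% in KO.

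Coverage, the percent of a promoter window's bases that lie under peaks, had a median over the members of 11.0%, 6.92% and 7.83% in WT and 4.49%, 6.50% and 9.06% in KO, with overlapping ranges. The mean over the members, by contrast, did not overlap: WT lists ranged from 14.9% to 19.1%, KO lists from 11.1% to 14.1%. Nor did the mean over all protein-coding genes, with WT lists at 8.4% to 10.4% and KO lists at 5.3% to 8.0%. For the members, this mean difference of -3.515 points shrank to -1.42 with equal numbers of strongest peaks. Coverage was widest at Ndufaf3, Ndufb10 and Ndufa13. Ndufaf3, an early assembly factor, was covered over the whole of its window in WT replicate 1 and KO replicate 3, over 72.6% and 86.2% in the other WT lists and 72.6% and 75.2% in the other KO lists. Ndufb10, a distal arm subunit, had 74.1%, 71.0% and 67.8% in WT and 69.4%, 66.1% and 69.8% in KO. Ndufa13, a proximal arm subunit also known as GRIM-19, had 62.6%, 71.6% and 52.3% in WT and 48.3%, 47.5% and 44.1% in KO, the latter all below the WT lists. Each of these windows also held another gene's TSS: Impdh2 for Ndufaf3, Rps2 for Ndufb10, and Tssk6 and Yjefn3 for Ndufa13.

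In the assembly factors, KDM2A peaks were at 8, 4 and 7 of 8 genes in WT and 4, 7 and 5 in KO. Ndufaf3, Ndufaf6 and Ndufaf8 had a peak in all 6 lists. Ndufaf1, which helps build the membrane arm, had one in WT replicate 1 and KO replicates 1 and 3. Ndufaf2, a chaperone of late assembly, had peaks in 3 WT lists and KO replicate 2, with coverage of 7.51%, 11.6% and 9.49% in WT and 13.8% in that KO list. Ndufaf4, which acts with Ndufaf3, and Ndufaf5, which hydroxylates Ndufs7, showed the same pattern of lists, WT replicates 1 and 3 and KO replicate 2. Ndufaf7, a methyltransferase, had peaks in 2 lists of each genotype.

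Ndufa4 is now assigned to cytochrome c oxidase, and Ndufa4l2 is its hypoxia-induced relative. Ndufa4l2 had a KDM2A peak in all 6 lists although its promoter is not CpG-rich. Its coverage came to 87.1%, 55.0% and 41.6% in WT and 45.8%, 4.10% and 28.0% in KO, and its fold was 2.45 to 3.20 in WT and 2.77 to 2.89 in KO. Ndufa4 had coverage of 17.4%, 7.28% and 15.4% in WT and 0.0%, 5.80% and 11.7% in KO. Both genes' ranges overlapped between the genotypes.

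Both X-linked members had little KDM2A. Ndufa1, a small membrane subunit required for assembly, had no peak in any list, and Ndufb11 had one only in replicate 2 of each genotype, with coverage of 17.9% in WT and 46.4% in KO. KDM2A peaks anywhere on the X chromosome numbered 86 and 39 in the male WT and KO lists and 140 to 245 in the female ones, while those on the Y chromosome, 0 and 6 in the male and 3 to 6 in the female lists, did not follow sex. The other member without a KDM2A peak in any list was Ndufb4, a distal arm subunit on chromosome 16. Their upstream bases are shown because both promoters are CpG-rich and carry none of the peaks (GRCm38, minus strand, X:37191164-37191244 for Ndufa1 and chr16:37654454-37654703 for Ndufb4; capitals mark CG).
Ndufa1: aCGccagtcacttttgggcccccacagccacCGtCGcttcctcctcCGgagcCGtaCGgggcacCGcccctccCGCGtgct
Ndufb4: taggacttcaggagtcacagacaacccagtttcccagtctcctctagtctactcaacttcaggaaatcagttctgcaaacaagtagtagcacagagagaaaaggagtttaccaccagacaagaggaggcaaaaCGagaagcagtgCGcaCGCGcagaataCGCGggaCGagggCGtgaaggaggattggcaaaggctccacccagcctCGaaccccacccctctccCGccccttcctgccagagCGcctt

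**Figure D2:**
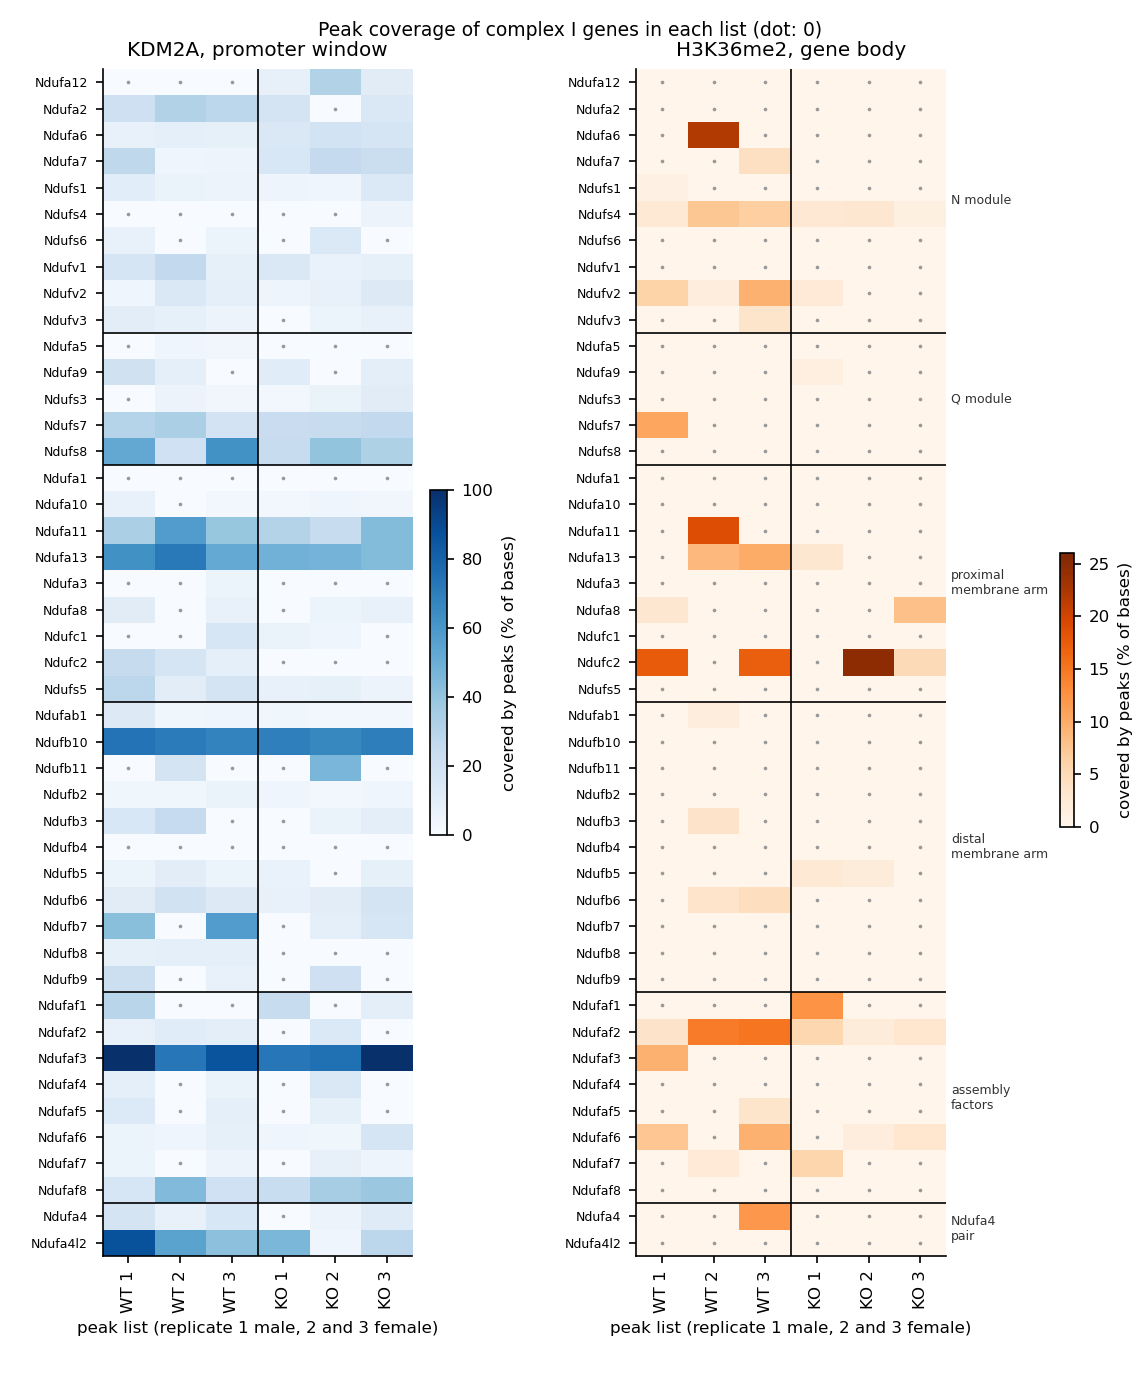
Percent of bases under peaks for the complex I genes (rows, by role) in each list (columns), with KDM2A over the promoter window on the left and H3K36me2 over the gene body on the right; a dot marks 0. Ndufaf3, Ndufb10 and Ndufa13 are dark in all 6 KDM2A lists, and most H3K36me2 cells are 0.

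Member peaks mostly lay over a TSS. Across the 6 lists the strongest KDM2A peak of a member had a median width of 549 to 845 bases and its centre a median 57 to 135 bases from the nearest TSS, and 87.9% to 96.8% of these peaks lay over a TSS. For all genes the median width was 691 to 959 bases and 79.9% to 81.5% lay over a TSS, and for CpG-rich genes 85.4% to 88.0% did. Along the genes, KDM2A was most frequent just past the TSS in every list, where 73.9%, 60.9% and 71.7% of members were covered in WT and 52.2%, 69.6% and 60.9% in KO. At the same place CpG-rich genes were covered in 64.1%, 62.4% and 62.7% in WT and 52.9%, 51.0% and 61.3% in KO. At the TSS H3K36me2 covered 0.0% to 4.35% of the members, and it reached its maximum, 4.35% to 19.6%, upstream of it.

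**Figure D3:**
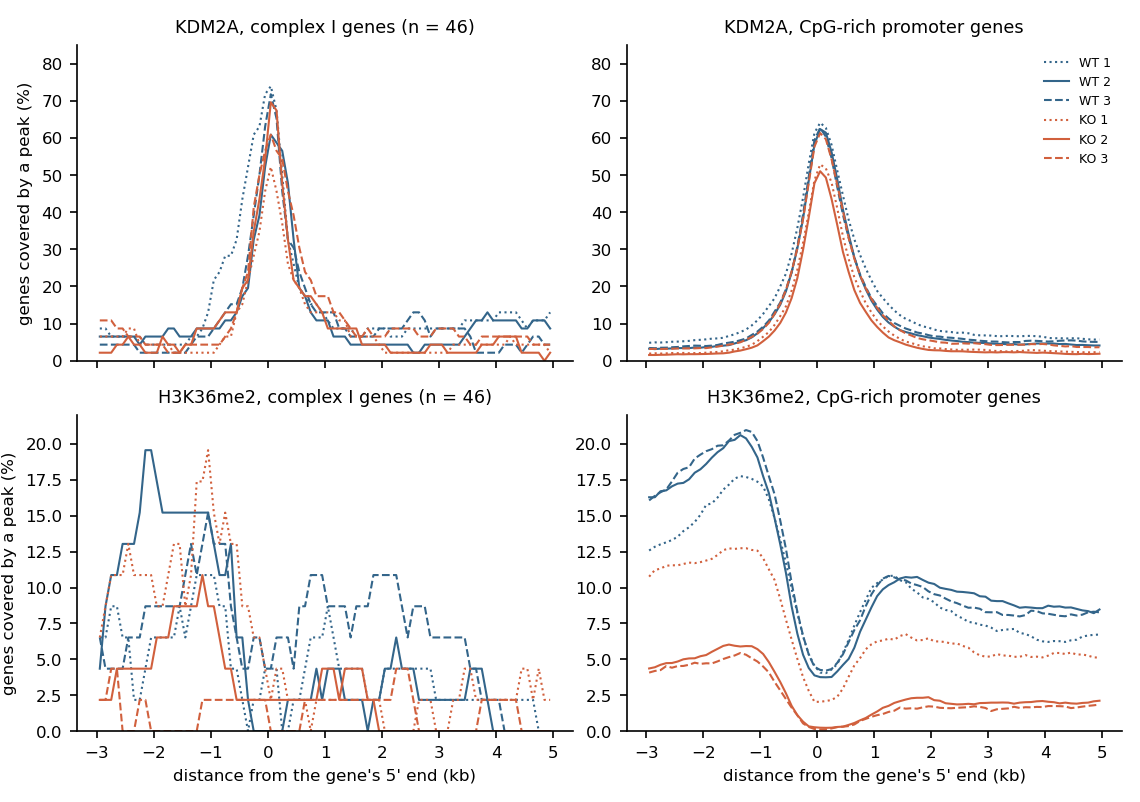
Percent of genes covered by a peak by distance from the gene's start (kb, in bins of 100 bases), for KDM2A (top) and H3K36me2 (bottom), complex I genes (left) and genes with a CpG-rich promoter (right); each line is 1 list. KDM2A peaks at 50 bases past the start in all 12 lines, and H3K36me2 is at 0.0% to 4.56% there.

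No complex I gene passed the test between genotypes. The fold of the strongest promoter peak was compared with limma in the 5786 genes with such a peak in all 6 lists, on a log2 scale centred on each list's median, and 0 genes (0.0%) had an adjusted p below 0.05. At an unadjusted p below 0.05 there were 299 genes, and 0 of the 19 members tested. The median log2 difference, KO minus WT, was -0.025 over these members and 0.0022 over all genes, with 10 members lower and 9 higher. The differences ranged from -0.20 ± 0.14 for Ndufv1 (SE, limma adjusted p = 0.914), -0.15 ± 0.12 for Ndufb10 and -0.14 ± 0.16 for Ndufb2, a distal arm subunit, to 0.17 ± 0.12 for Ndufs1, 0.20 ± 0.13 for Ndufa7, an N module subunit, and 0.26 ± 0.13 for Ndufaf8, and the limma adjusted p ran from 0.914 to 0.998 over the members. On this centred scale every KO list lay above every WT list for 5.2% of all genes and for 0 of 19 members, and below for 5.17% of all genes and for 1 member, Ndufb10. Before centring, its folds were 3.77, 3.91 and 3.62 in WT and 3.21, 3.07 and 3.50 in KO, and those of Ndufv2 did not overlap either. Without centring the median log2 difference over all genes was -0.060, and the share of all genes without overlap on that scale is not given here. That the 19 had peaks in all 6 lists is a condition of this test.

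Promoter coverage, which counts a list without a peak as 0, was tested in 8372 genes with a mean of at least 5% over the 6 lists, 33 members among them. It gave 0 calls (0.0%), with 846 genes and 3 members, Ndufa12, Ndufa2 and Ndufc2, at an unadjusted p below 0.05 in limma. The median difference was -2.83 percentage points over the members and -4.53 over all genes, with 25 members lower and 8 higher. Once each list was scaled to a common mean coverage the split turned to 12 lower and 21 higher, with a median of 1.74 points for the members and 0.09 for all genes. The direction over the members therefore depended on the scale. The lowest values were -35.3 ± 15.6 points for Ndufa4l2 (SE, limma adjusted p = 0.497), -25.1 ± 13.9 for Ndufb7 and -16.9 ± 4.24 for Ndufc2 (limma adjusted p = 0.364). The highest were 16.8 ± 5.89 for Ndufa12 (limma adjusted p = 0.454), 9.50 ± 12.4 for Ndufb11 and 8.69 ± 7.30 for Ndufa7. Ndufa4l2 turned to 9.04 points higher in KO when equal numbers of the strongest peaks were taken from each list.

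For coverage, all KO lists lay above all WT lists in 1.28% of the genes tested and in 2 of 33 members, Ndufa12 and Ndufa6. Ndufa6, an N module subunit, had 7.49%, 8.78% and 8.36% in WT and 14.6%, 18.6% and 16.9% in KO. All KO lists lay below all WT lists in 15.4% of genes and in 4 members, Ndufa13, Ndufa2, Ndufc2 and Ndufs5. Ndufs5, a proximal arm subunit, had 28.1%, 10.2% and 17.7% in WT and 7.16%, 8.51% and 5.73% in KO, and Ndufa2, an N module subunit, had 20.6%, 31.2% and 28.1% in WT and 17.9%, 0.0% and 14.5% in KO. Counted over all 46 members, 2 lay above and 6 below, beside 0.666% and 7.03% of all protein-coding genes. Without WT replicate 1 it was 4 above, beside 1.78% of genes. Below, it was 10 without WT replicate 2 and 12 without WT replicate 3 or KO replicate 3, beside 12.7%, 12.1% and 13.2% of genes. With 3 lists against 3 an exact permutation test of 1 gene cannot go below p = 0.1.

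In 3 members a KDM2A promoter peak was present in every list of 1 genotype and in none of the other. This was so for 2 members in WT, Ndufb8 and Ndufc2, beside 0.793% of all protein-coding genes, and for 1 member in KO, Ndufa12, beside 0.105%. Ndufb8, a distal arm subunit, had peaks of 2.60, 2.78 and 3.06 fold in WT within chr19:44554827-44555589, covering 8.46%, 8.72% and 9.21% of its window. Ndufc2, a proximal arm subunit, had 2.81, 3.15 and 2.68 fold within chr7:97399659-97400676, covering 24.6%, 17.0% and 9.19%. Ndufa12, an N module subunit and the paralogue of the assembly factor Ndufaf2, had 2.87, 2.71 and 2.83 fold in KO within chr10:94197906-94199418, covering 8.01%, 31.1% and 11.3%. These folds, 2.60 to 3.15, compare with medians of 2.61 to 2.88 over all KDM2A peaks of a list. With only the peaks at a -log10 q of at least 2 none of the 3 genes kept its pattern, and Ndufv2 was the only member then in every WT list and no KO list.

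The bases upstream of these 3 genes, and of Ndufb10, which was covered in all 6 lists, are shown because these genes differ most plainly in which lists bound them. Each is the stretch of up to 250 bases before the annotated start that holds no exon, read from GRCm38 on the gene's strand, with CG in capitals. They lie at chr19:44555441-44555690 (minus strand), chr7:97399753-97400002 (plus), chr10:94198470-94198719 (plus) and chr17:24724479-24724728 (minus). Ndufb8 holds 16 CG here and each of the others 4, including Ndufb10, bound in every list. These counts depend on the stretch taken. In the RefSeq promoters described below, Ndufb8, Ndufc2, Ndufa12 and Ndufb10 held 19, 8, 25 and 15 CG. The Ndufb10 peaks formed an interval of 7151 bases with its centre in an Rps2 intron.
Ndufb8: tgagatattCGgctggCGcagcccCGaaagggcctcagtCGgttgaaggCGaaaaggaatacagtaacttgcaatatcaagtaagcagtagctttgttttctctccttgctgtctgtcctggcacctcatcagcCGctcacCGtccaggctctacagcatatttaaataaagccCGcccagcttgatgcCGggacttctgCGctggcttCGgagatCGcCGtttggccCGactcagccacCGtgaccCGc
Ndufc2: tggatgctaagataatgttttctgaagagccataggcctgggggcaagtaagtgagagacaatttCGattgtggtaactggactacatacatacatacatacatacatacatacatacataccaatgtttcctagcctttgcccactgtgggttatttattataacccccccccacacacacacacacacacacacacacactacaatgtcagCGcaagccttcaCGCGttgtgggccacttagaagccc
Ndufa12: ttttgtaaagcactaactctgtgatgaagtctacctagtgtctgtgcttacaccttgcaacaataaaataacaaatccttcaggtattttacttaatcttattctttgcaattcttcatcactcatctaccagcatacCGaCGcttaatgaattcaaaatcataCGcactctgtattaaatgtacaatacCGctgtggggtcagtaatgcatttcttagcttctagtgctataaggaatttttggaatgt
Ndufb10: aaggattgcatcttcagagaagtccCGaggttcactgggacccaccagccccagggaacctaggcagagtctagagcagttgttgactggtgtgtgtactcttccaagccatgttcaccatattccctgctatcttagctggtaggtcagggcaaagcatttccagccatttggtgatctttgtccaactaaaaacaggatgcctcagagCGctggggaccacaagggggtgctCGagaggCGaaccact
KDM2A peaks overlapped this stretch in 2 WT lists for Ndufb8, in 2 WT lists for Ndufc2, in 1 KO list for Ndufa12 and in all 6 lists for Ndufb10.

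By a rule adapted from the one the study used for enriched peaks, 5 members fell in a class. As applied here it takes merged promoter intervals bound in at least 2 of 3 lists, with a mean fold above 3 and a ratio of mean folds above 1.17 or binding in 1 genotype alone. The mean is over the deposited folds of the lists with a peak, whereas the study set KDM2A signal against input and took peaks anywhere in the genome. It placed 13.0% of the 10550 genes with a bound promoter interval in the WT class and 2.79% in the KO class, and among the 40 members with such an interval 3 and 2. Leaving out KO replicate 2 or 3 raised the WT class to 9 or 10 members, beside 17.6% and 22.2% of all bound genes. The KO class came to 5 members when WT replicate 2 was left out, beside 7.16% of bound genes, and to 1 and 0 when KO replicate 1 or 3 was, beside 2.4% and 2.07%.

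The 3 in the WT class were Ndufv1, Ndufs3 and Ndufaf7. At Ndufs3 (chr2:90904188-90905523) the mean fold was 3.49 in the 2 WT lists with a peak and 2.74 in KO, a ratio of 0.786, while its promoter coverage was 2.98% ± 2.86 in WT and 6.64% ± 4.20 in KO, the opposite order. At Ndufv1 (chr19:4012339-4013827) the ratio was 0.821 and at Ndufaf7 (chr17:78936574-78937302) 0.824. The 2 in the KO class were Ndufa9, a Q module accessory subunit (chr6:126848861-126849655, 3.02 and 2.89 fold in WT, 3.21 and 4.01 in KO), and Ndufv3, an accessory subunit of the N module. Ndufv3 rested on 2 KO lists, with 4.28 and 3.04 fold against 2.68, 3.16 and 3.40 in WT. The genotypes overlapped, the ratio of 1.19 was just above the limit, and its promoter coverage came to 10.5%, 8.25% and 5.69% in WT and 0.0%, 5.45% and 7.22% in KO. Its window also holds the TSS of Wdr4, and the 134 exon-free bases before its start (GRCm38, chr17:31519981-31520114, plus strand) hold 9 CG, in capitals.
Ndufv3: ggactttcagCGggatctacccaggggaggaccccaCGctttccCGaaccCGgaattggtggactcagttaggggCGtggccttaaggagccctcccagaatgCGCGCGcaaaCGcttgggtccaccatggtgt
A KDM2A peak lay over this stretch in 3 WT and 2 KO lists.

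**Figure D4:**
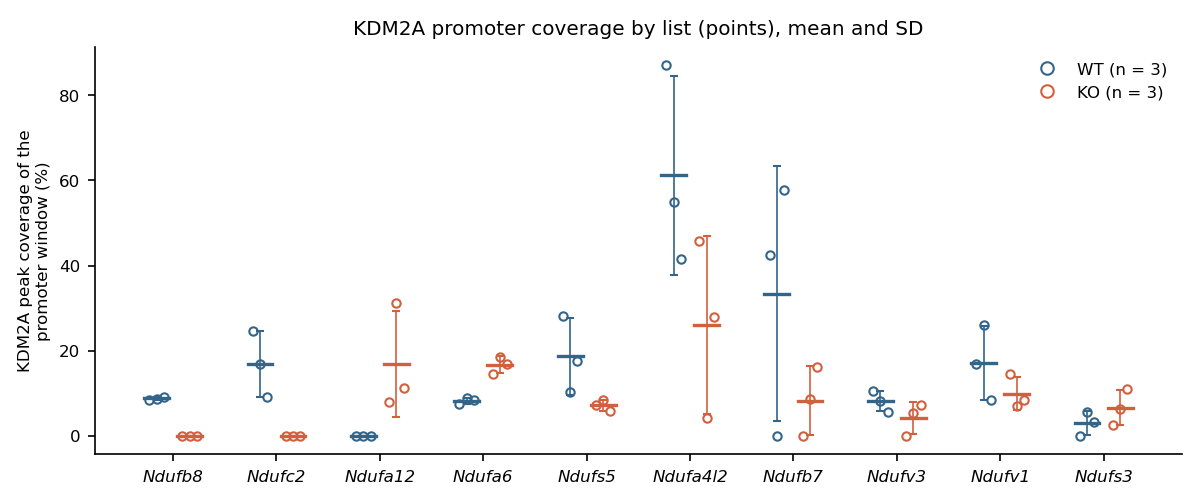
KDM2A peak coverage of the promoter window (percent of bases, y axis) in each list (points, 3 per genotype) with the mean and SD, for 10 named complex I genes. Ndufb8, Ndufc2, Ndufa12, Ndufa6 and Ndufs5 show no overlap between WT and KO, whereas the other 5 genes overlap.

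H3K36me2 was sparse over the bodies of complex I genes. A peak touched the body of 10, 11 and 12 members in the WT lists and 9, 5 and 6 in KO, that is 23.9% ± 2.17 and 14.5% ± 4.53. Over all protein-coding genes these were 42.4% ± 0.96 and 29.1% ± 12.2, and over CpG-rich genes 52.1% and 35.8%. Genes of respiratory complexes II to V stood at 30.6% and 15.7%, and those of mitochondrial ribosomal proteins at 27.8% and 13.7%, also below the shares of all genes. The difference in members with a body peak was -1 member in the males and -6 on average in the females, and -5.5 members without KO replicate 1. With equal numbers of the strongest peaks per list it was -0.333 members. Over all protein-coding genes, with all peaks, it was 390 genes in the males and -4576 in the females. In the promoter window the shares were 37.7% and 23.2% for members, beside 40.4% and 24.1% for all protein-coding genes.

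Gene length went with the H3K36me2 share. The 9 members of 20 kb or more had a body peak in 48.1% in WT and 37.0% in KO, against 59.5% and 45.9% for all genes of that length, and the 37 shorter ones in 18% and 9.01%, against 27.7% and 14.7% for all genes of that length. As a mean over members, 1.64%, 2.01% and 2.22% of the gene body was covered in WT and 0.814%, 0.722% and 0.529% in KO, a mean difference of -1.27 points. This difference came to -0.148 points with equal numbers of strongest peaks and turned to 0.148 points with only peaks at a -log10 q of at least 2. Over all genes the mean was 6.19% ± 0.58 and 2.44% ± 1.97. In 22 members no list had a body peak, and 24 had one in at least 1 list, as did 12761 of all 21938 protein-coding genes.

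Ndufaf2 and Ndufs4, the longest members, had an H3K36me2 body peak in all 6 lists. Ndufaf2 was covered over 3.64%, 14.6% and 15.1% in WT and 5.40%, 1.91% and 3.11% in KO, and Ndufs4 over 2.48%, 7.39% and 6.57% in WT and 2.70%, 2.99% and 1.08% in KO. In limma 5342 genes reached a mean of 5%, 3 members among them, and 0 genes (0.0%) were called, with 1677 genes at an unadjusted p below 0.05. Ndufaf2 differed by -7.64 ± 3.98 points (SE, limma adjusted p = 0.190) and Ndufc2 by -1.65 ± 7.74, and the median over all genes was -10.6. Without KO replicate 1 limma called 1455 genes, and 0 of the 3 members. KO lists all lay above WT lists in 0.0936% of genes, and all below in 39.6%.

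In the 2.5 kb downstream of the TSS, 9, 8 and 9 members had an H3K36me2 peak in WT and 4, 3 and 3 in KO, without overlap and with a difference of -5 members in the males and -5.5 in the females. All protein-coding genes did not overlap either, with 4987, 4931 and 5117 in WT and 4505, 1290 and 1350 in KO, a difference of -482 in the males and -3704 in the females. The core subunits had 4, 1 and 1 in WT and 0 in every KO list, and the N module 3, 1 and 3 in WT and 0 in KO. The proximal membrane arm had 2, 1 and 1 in WT and 1, 1 and 2 in KO, with a mean coverage of 3.38% ± 0.47 and 5.21% ± 3.79. For all genes the share was 22.8% ± 0.44 in WT and 10.9% ± 8.38 in KO. Of 6332 genes in limma 0 (0.0%) were called, 607 had an unadjusted p below 0.05, and of these 0 were among the 12 members tested. The median difference was -10.7 points over these members and -15.4 over all genes, and the KO lists lay all above the WT lists in 0.237% of genes and all below in 15.3%, with 0 members in either. Ndufaf6 had the highest coverage there, 59.9%, 0.0% and 94.8% in WT and 0.0%, 16.8% and 30.9% in KO. Ndufv2 had 26.8%, 0.0% and 73.8% in WT and Ndufaf2 0.0%, 14.0% and 81.9%, and both were at 0 in all KO lists, with adjusted p = 0.510 in limma for each. Against these, Ndufc2 was 23.2 ± 18.7 points, Ndufaf1 12.1 ± 11.0 and Ndufa8, a proximal arm subunit, 8.68 ± 13.9 points higher in KO, from 1 or 2 lists each.

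Fewer members carried both KDM2A and H3K36me2 at the promoter window in the female KO lists. In lists of the same replicate number, 12, 15 and 18 members had both in WT and 12, 5 and 4 in KO. The labels do not say whether such lists share chromatin. The difference was 0 members in the males and -12 in the females, and over all genes -1421 and -4169. As shares this was 32.6% of members in WT and 15.2% in KO, near the 30.7% and 15.8% of all protein-coding genes, while CpG-rich genes had 46.5% and 24.2%. Ndufaf6, an assembly factor of the Q module and its neighbouring membrane part, had an H3K36me2 promoter peak in all 6 lists, of 2.64, 2.79 and 2.71 fold in WT and 3.09, 2.74 and 2.77 in KO, beside its KDM2A peak in all 6. Ndufa6, whose KDM2A coverage was higher in KO, had an H3K36me2 promoter peak in 3 WT lists (2.45, 2.49 and 2.61 fold) and no KO list, a pattern found in 2.12% of all protein-coding genes and 3.21% of CpG-rich ones.

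Among 11 other assembly genes of complex I without an Nduf symbol, 7, 8 and 9 had a KDM2A promoter peak in WT and 6, 7 and 7 in KO, and limma called 0 of those tested in any measure. A peak in all 6 lists was found at 2 of them (18.2%), Foxred1 and Tmem126b, which act in membrane arm assembly, against 41.3% of members, 26.4% of all protein-coding genes and 46.2% of CpG-rich ones. Ecsit, a partner of Ndufaf1 in that step, had a KDM2A promoter peak in 3 WT lists, covering 15.8%, 13.2% and 29.4% of its window. It had none in KO, a pattern found in 0.793% of all protein-coding genes. Tmem70, Acad9 and Timmdc1 went the other way, each with a peak in 2 WT and 3 KO lists. Of the 9 genes tested for KDM2A coverage, 5 were lower and 4 higher in KO. H3K36me2 promoter peaks were at 10, 7 and 8 of the 11 genes in WT and 4, 2 and 3 in KO, that is 75.8% and 27.3%. The shares were 37.7% and 23.2% for members, 40.4% and 24.1% for all protein-coding genes and 52.7% and 29.9% for CpG-rich ones, and 9 of these 11 genes are CpG-rich. Their body peaks were at 8, 4 and 2 in WT and 2, 1 and 2 in KO.

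Promoters of 40 members could be matched in the RefSeq table for GRCm38.p6, which holds 250 bases before and 50 after each gene's start. They held a median of 20.5 CG, against 14 in 16522 promoters. Searched on both strands, the NRF1 motif GCGCANGCG was found in 10 members (25.0%) and 9.19% of all promoters, and the YY1 motif AAGATGGCG in 6 members (15.0%) and 2.05%. The ETS motif CCGGAAG was found in 6 members (15.0%) and 12.3%, CACGTG, the E-box, in 2 (5.0%) and 8.11%, and ACGTG, the core of hypoxia response elements and part of that E-box, in 7 (17.5%) and 21.1%. Ndufb4, which had no KDM2A peak, held 3 NRF1 matches and 23 CG. Ndufa1, the other member without a peak, held 29 CG, and Ndufc2, with a peak in 3 WT lists, 8 CG. Whether matches went with peaks was not tested. A match is a description of letters in this window and not of a bound factor.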

How the data were processed

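KDM2A and H3K36me2 ChIP-seq was compared between WT and KO splenic B cells fixed with EGS and formaldehyde. Per the study's methods, alignment used BWA against GRCm38 and MACS2 called the peaks, run by the authors through the nf-core chipseq pipeline. The deposited lists are of broad peaks, and the methods do not state the control used for the calls. Versions of BWA and MACS2 are not given in the sources used here. The deposited lists, 1 per library, give for each peak a fold ratio over background and the -log10 of its p-value and q-value. The score column that MACS2 also writes was deposited by the authors and is not used here. These values were not normalized between lists, read depth cannot be read from them, and list size depends on depth and enrichment.

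Peaks were intersected with GENCODE M21 protein-coding genes on GRCm38. A promoter was 2 kb either side of any TSS. Coverage was the percent of bases under peaks. The smallest -log10 q in any list was 1.00. Over all genes, limma 3.58.1 (R 4.3.3, lmFit and eBayes with trend, genotype only) was fitted to log2 fold centred per list in genes with peaks in all 6 lists, and to coverage in genes with a mean of at least 5%, with p-values adjusted by Benjamini-Hochberg and called below 0.05. The scripts were tested on simulated data. Groups came from sample titles, and replicate numbers marked sex in both genotypes but did not pair the samples, since correlations of same-numbered deviations from the genotype means ran from -0.05 to 0.08.

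Members, gene lists and roles were chosen with earlier results of these data known. Named with values were the core subunits (except 1 gene whose values are not reported here), Ndufv3, X-linked members, Ndufa4 and Ndufa4l2, the assembly factors, the 3 largest differences in each direction and the 3 highest means per measure, members in an enriched class and members without a KDM2A peak. Ndufs4, Ndufa6, Ndufa2, Ndufs5, Ndufb8, Ndufc2 and Ndufa12 were in part named after their values were seen, as were Foxred1, Tmem126b and Ecsit. Alternatives were stricter q-values, equal numbers of peaks, other windows, scalings and filters, a replicate block, and leaving out each list. Mean coverage, the comparison with CpG-rich genes, and the alternatives for non-overlapping and one-genotype counts were chosen after seeing the data. Input libraries were not analysed here.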

Additional observations from a re-analysis of the deposited data

Results flagged for a closer look

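Of 28 results screened, 4 had a KO minus WT difference of opposite sign in the male pair and in both female KO lists. Each rests on 1 male list per genotype, no test of the sexes against each other was run, and replicate 1 of the KO H3K36me2 libraries also had the longest list, whose part was not tested. The number of members with an H3K36me2 promoter peak was 4 higher in KO in the males and differed by -12.0 members in the females (-14.0 and -10.0 for the lists). Over all protein-coding genes it differed by -141 genes in the males and -5289 in the females. KDM2A promoter coverage of Ndufa7 differed by -11.7 percentage points in the males and 18.9 in the females (17.4 and 20.4). H3K36me2 body coverage of Ndufaf2 differed by 1.76 points in the males and -12.3 in the females (-13.2 and -11.5). H3K36me2 coverage downstream of the Ndufc2 TSS differed by -19.2 points in the males and 44.4 in the females (11.6 and 77.2).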

How the results depend on the processing

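All 4 limma comparisons gave 0 calls with a replicate block and under every alternative run, except H3K36me2 gene body coverage without KO replicate 1 (1455 genes, 0 of 3 members). A stricter -log10 q of at least 2 left no member to test in that measure. It moved the difference in members with a KDM2A promoter peak to -8.33 and in members with an H3K36me2 body peak to 0.0, median KDM2A coverage to -4.71 points, mean H3K36me2 body coverage to 0.148 and mean downstream coverage to -0.141. It also gave 1 and 3 members with KDM2A coverage above and below in every KO list, and 0 and 1 members bound in every KO or every WT list alone. With equal numbers of strongest peaks, members with a KDM2A promoter peak differed by -1 and median KDM2A coverage by -0.294 points. Members with an H3K36me2 body peak differed by -0.333, and mean coverage by -1.42 points (KDM2A), -0.148 (H3K36me2 body) and -0.685 (downstream). With all peaks these means differed by -3.515, -1.27 and -3.17 points. Over the lists left out, the KDM2A mean ran from -4.24 to -2.15 and the downstream mean from -4.36 to -1.44. Counting only the gene's outermost start gave 2 KO-only members, and a common median fold gave 5 WT-enriched members. Leaving out each list in turn gave 2 to 10 WT-enriched and 0 to 5 KO-enriched members, and 2 to 4 members above and 7 to 12 below in coverage.

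Single genes that turned were Ndufb2 fold, 0.035 without KO replicate 1 (from -0.30 over the lists left out), Ndufa4l2 coverage, 9.04 points with equal peak numbers, Ndufaf6 downstream coverage, 21.4 on a common mean, and Ndufc2 downstream coverage, -0.61 without KO replicate 2 (up to 38.0 over the lists left out). Ndufc2 body coverage turned to 1.32 and 1.15 without WT replicates 1 and 3, 3.30 and 0.81 without KO replicates 1 and 3 (lowest -9.08, without KO replicate 2), 6.20 with equal peak numbers and 22.7 on a common mean. Others kept their sign but moved when 1 list was left out. KDM2A coverage then ran from -41.8 to -13.0 points for Ndufb7, 4.89 to 16.2 for Ndufa7 and 6.5 to 17.2 for Ndufb11, where still tested. H3K36me2 downstream coverage ran from -50.3 to -13.4 points for Ndufv2 and -61.4 to -14.0 for Ndufaf6, the smaller values without WT replicate 3. The causes were not tested. Of the alternatives, 128 values for the main counts and comparisons and 205 for single genes kept their direction and side of the threshold or moved by less than the spread between lists or, for counts, by under 1.5 times. Read depth is unknown, so a missing peak may be a peak below detection.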
